A study of Mus musculus with 6 samples.

Results

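The circadian clock genes described here are the 10 genes Arntl, Clock, Npas2, Per1, Per2, Per3, Cry1, Nr1d1, Nr1d2 and Dbp, which were taken by name from a gene count table of 54532 genes. Each of the 10 names matched 1 gene. RNA-seq was performed on left ventricles from 3 TG and 3 NTG hearts, with 1 library per heart, 4 weeks after aortic banding (AB), a ligature around the thoracic aorta that overloads the ventricle with pressure. Male mice were 8 to 10 weeks old at surgery. TG mice carry a HINT2 transgene together with Myh6Cre, labelled HINT2CTG-Myh6Cre, and HINT2 is a nucleotide hydrolase of the mitochondria. Myh6 drives the Cre in cardiomyocytes, and TG mice received tamoxifen (5 mg/kg per day for 7 days) to switch the transgene on. NTG mice are labelled C57BL/6J and carry neither the transgene nor the Cre by that label. The sources used here do not say whether they received tamoxifen, so HINT2, Cre and tamoxifen cannot be told apart in this comparison. The 6 hearts were all banded, and no sham-operated heart was analysed here. The hour of the day at which the hearts were taken is not given in the sources used here.

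The NTG libraries held 14863568 to 17581220 counts and the TG libraries 14944465 to 17235802. The mouse Hint2 gene, to which reads of a transgene contribute where they match it, had 793, 828 and 859 counts in TG hearts. It had 12, 545 and 559 counts in NTG 1, NTG 2 and NTG 3, so the library labelled NTG 1 stands apart from its group. Along the principal component with most variance (52.3%), NTG 1 at −5.08 lay nearer to TG 2 at −10.7 than to NTG 2 at 55.7 or NTG 3 at 29.3. Fold changes of the 10 clock genes are therefore given with and without this library. So are the counts of calls in the gene lists read beside them, other than the cell type markers. Of 8 ventricular cardiomyocyte markers, all 8 were among the genes tested, and their summed level was 21126 to 35776 CPM (counts scaled to a common library size) in NTG and 34471 to 42698 CPM in TG hearts. Of the 5 atrial markers, Myl7 was at 19.5, 0.159 and 0 CPM in NTG 1 to 3 and at 1.59, 7.67 and 64.4 CPM in TG 1 to 3. Sln and Myl4 were highest in the same 3 libraries, NTG 1, TG 2 and TG 3. Nr2f2 did not share this order, at 10.7, 14.2 and 17.8 CPM in NTG 1 to 3 and 16.2, 11.9 and 16.4 CPM in TG 1 to 3. Bmp10 was at or under 0.216 CPM in every library. The fibroblast markers summed to 4520 to 10660 CPM in NTG and 2184 to 3835 CPM in TG hearts, the erythroid markers to 1226 to 2094 CPM and 698 to 821 CPM, the macrophage markers to 298 to 583 CPM and 233 to 338 CPM, and the smooth muscle markers to 130 to 155 CPM and 202 to 225 CPM. The endothelial markers summed to 1393 to 1604 CPM and 1471 to 1616 CPM, and the adipocyte markers stayed at or under 2.53 CPM in every library. In whole tissue, fewer cells of a type and less RNA per cell cannot be told apart, and the part of these markers in the clock values was not tested.

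The mammalian clock is a loop of transcription factors that runs in nearly every cell. ARNTL, also called BMAL1, pairs with CLOCK or its relative NPAS2 and switches on genes through E-box motifs. Among these are the Per and Cry genes, whose proteins return to the nucleus and block the pair, and Nr1d1 and Nr1d2, whose proteins, the REV-ERBs, repress Arntl through RORE motifs. Dbp, a transcription factor driven by the same E-boxes, carries the rhythm to D-box motifs in other genes. In mouse tissues, including the heart, the transcripts peak in a fixed order: Arntl and Npas2 near the start of the light phase, Nr1d1 and then Nr1d2 and Dbp during the light phase, the Per genes around its end, and Cry1 in the dark phase. Clock RNA varies least. Arntl and Npas2 are thus high when Dbp and the Nr1d genes are low, and the ratio between them changes with the hour.

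The motifs through which the loop closes could be read in the promoters of some members. Windows of 250 bases before to 50 bases after the transcription start were taken from RefSeq (GRCm38.p6), where 9 of the 10 genes had an entry, in 13 windows. Per2 had none. The motifs searched on both strands were the E-box CACGTG, the related E'-box CACGTT, the D-boxes TTATGTAA and TTACGTAA, and the RORE. The stretches with a match are shown because they mark which members are read as targets of which factor, and the capitals mark the motif.
Arntl, RORE, chr7:113207528-113207556, plus strand: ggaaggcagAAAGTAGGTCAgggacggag
Per1, E-box, chr11:69098765-69098806, plus strand: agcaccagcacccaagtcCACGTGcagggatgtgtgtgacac
Cry1, E'-box and E-box, chr10:85185091-85185151, minus strand: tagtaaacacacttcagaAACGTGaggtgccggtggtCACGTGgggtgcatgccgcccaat
Nr1d1, E'-box, chr11:98775382-98775423, minus strand: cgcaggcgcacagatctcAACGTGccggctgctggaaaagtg
Per3, D-boxes, chr4:151044798-151044888, minus strand: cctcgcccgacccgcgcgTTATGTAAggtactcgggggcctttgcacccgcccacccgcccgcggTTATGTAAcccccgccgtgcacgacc
The E'-boxes lie on the opposite strand and therefore read AACGTG. The E-box began 166 bases before the start in Per1 and 60 bases before it in Cry1, and the D-boxes of Per3 began 205 and 158 bases before it. The RefSeq start used for Per1 lies inside the gene as the count table delimits it, which begins at 69095217. The RORE of Arntl began at base 27 counted from the transcription start of its second window, so it lies after that start. Of all 32851 windows in the table, 7.15% held the E-box, 4.68% the E'-box, 1.06% a D-box and 0.384% the RORE. No match was found in the windows of Clock, Npas2, Nr1d2 and Dbp, which says only that these letters are not in these windows.

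Between TG and NTG hearts, no clock gene passed the test across all genes. All 10 were among the 14774 genes tested, and 0 were called at an adjusted p under 0.05 with a log2 fold change over 0.5 in size (edgeR's quasi-likelihood test), against 0% of all genes tested. An unadjusted p under 0.05 was reached by 1 of 10 genes, Per2, which was higher in TG, against 18.6% of all genes (8.83% higher and 9.76% lower). DESeq2 called 3.95% and the likelihood-ratio test 3.69% of all genes, and each called 0 of the 10. The fitted difference was positive for 3 genes, Per2, Per3 and Cry1, and negative for the other 7, with a median of −0.11 on the log2 scale against −0.0081 over all genes tested. Without NTG 1 the log2 fold changes were −0.14 for Arntl, −0.043 for Clock, 0.024 for Npas2, −0.33 for Per1, 0.20 for Per3, −0.44 for Nr1d1, −0.32 for Nr1d2 and −0.47 for Dbp (edgeR adjusted p from 0.309 to 0.962), and those of Per2 and Cry1 stand with their values. Values below are TMM-normalized CPM in NTG 1, NTG 2 and NTG 3, then in TG 1, TG 2 and TG 3.

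**Figure D1:**
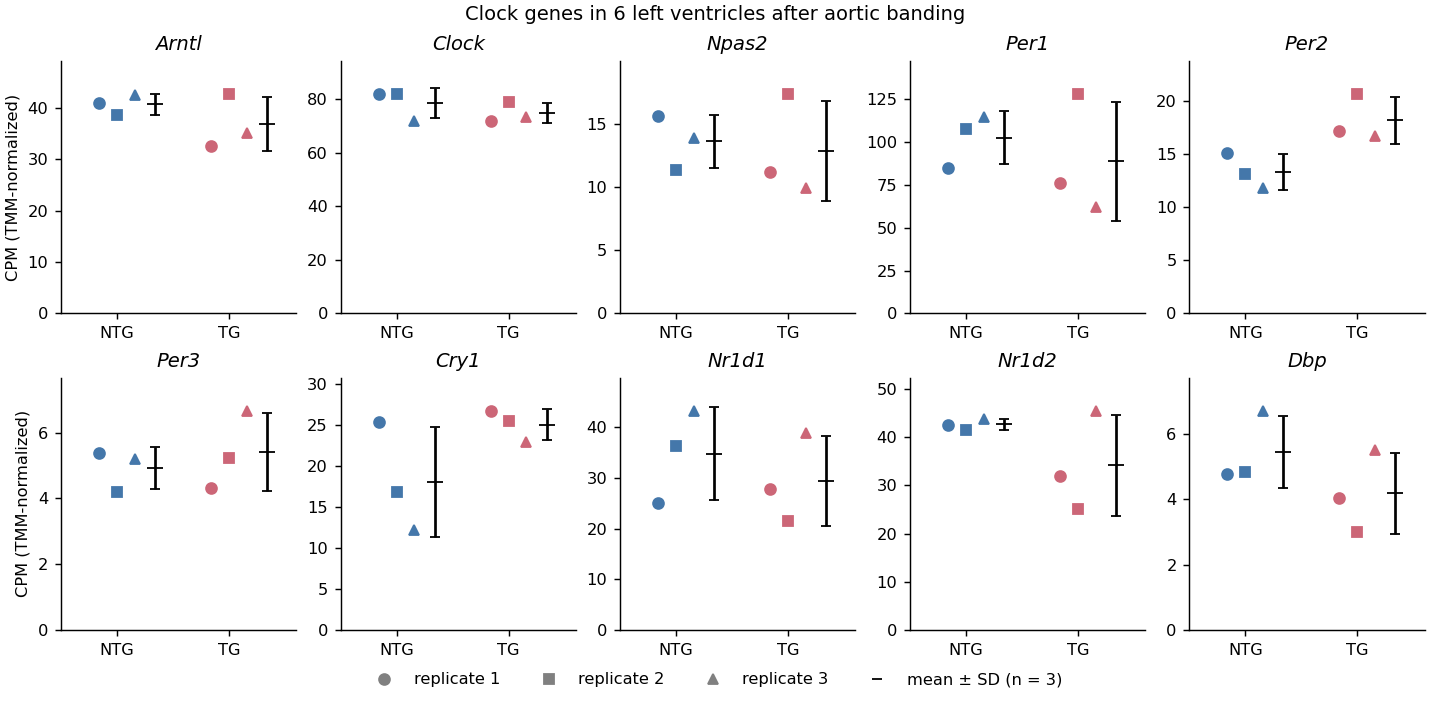
TMM-normalized CPM (y axes, from 0) of each clock gene in the 3 NTG (blue) and 3 TG (red) libraries; symbols mark the replicate number and black bars the mean ± SD (n = 3). Per2 is the gene whose groups do not overlap, with 11.8 to 15.2 CPM in NTG and 16.7 to 20.7 CPM in TG, and TG 2 and TG 3 lie at opposite ends of the TG group for Npas2, Per1, Nr1d1, Nr1d2 and Dbp.

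In the positive arm, the groups overlapped for each gene. Arntl (ENSMUSG00000055116, GRCm38 chromosome 7, 113207465 to 113314126, plus strand) was at 41.0, 38.6 and 42.5 CPM in NTG and at 32.7, 42.7 and 35.1 CPM in TG hearts. TG 1 and TG 3 lay under the NTG hearts, and TG 2 was the highest of the 6. The means were 40.7 ± 1.97 and 36.8 ± 5.22 CPM (SD, n = 3), with a log2 fold change of −0.14 (standard error, SE, 0.12, edgeR adjusted p = 0.532). It was −0.26 without TG 2 (unadjusted p = 0.0448, adjusted p = 0.250) and −0.065 without TG 1 (adjusted p = 0.853). Clock, the constant partner, was at 81.9, 82.0 and 72.0 CPM in NTG and at 72.1, 79.0 and 73.5 CPM in TG hearts. It varied least of the 10 genes, by 1.14-fold between the highest and the lowest library, and its log2 fold change was −0.07 (SE 0.09, edgeR adjusted p = 0.703). Npas2, which can replace CLOCK beside ARNTL, was at 15.6, 11.4 and 13.9 CPM in NTG and at 11.2, 17.3 and 9.94 CPM in TG hearts. The highest and the lowest value were both in TG, in TG 2 and TG 3, while the group means differed by less than that (log2 fold change −0.08, SE 0.23, edgeR adjusted p = 0.869).

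Among the Per genes, Per2 was higher in every TG than in every NTG heart, and Per1 and Per3 overlapped. Per2 (ENSMUSG00000055866, GRCm38 chromosome 1, 91415982 to 91459324, minus strand), a repressor of the ARNTL pair, was at 15.2, 13.1 and 11.8 CPM in NTG and at 17.2, 20.7 and 16.7 CPM in TG hearts. The means were 13.4 ± 1.69 and 18.2 ± 2.17 CPM (SD, n = 3), a fold of 1.36, and the exact permutation test gave p = 0.1, two-sided, the smallest that 3 libraries against 3 allow. Its log2 fold change was 0.45 (SE 0.14, edgeR unadjusted p = 0.0144 and adjusted p = 0.207), which does not pass over all genes tested. Groups that do not overlap were found for 1 of 10 clock genes and for 23.5% of all genes tested, 11.2% with TG higher and 12.3% with TG lower, so this count lies near the background. Without NTG 1 the log2 fold change of Per2 was 0.54 (adjusted p = 0.0684 by edgeR and 0.0369 by DESeq2, which then called 11.7% of all genes). It was 0.37 without NTG 3 and 0.34 without TG 2, where the unadjusted p by edgeR was 0.0575 and 0.0610, no longer under 0.05.

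Per1 was the most variable of the Per genes. It was at 85.1, 107 and 115 CPM in NTG and at 76.4, 128 and 61.9 CPM in TG hearts, so that TG 2 was the highest and TG 3 the lowest of the 6, 2.07-fold apart. The log2 fold change was −0.21 (SE 0.27, edgeR adjusted p = 0.702), and it was −0.57 without TG 2 (adjusted p = 0.174) and −0.0039 without TG 3 (adjusted p = 0.996). Besides its place in the clock, Per1 is known to be induced within minutes by the signals that induce immediate early genes such as Fos and Egr1. The 9 immediate early genes listed summed to 731, 927 and 931 CPM in NTG 1 to 3 and to 1010, 1247 and 482 CPM in TG 1 to 3. Their sum was likewise highest in TG 2 and lowest in TG 3, and its part in the Per1 values was not tested. Per3, with 60 to 108 counts per library, was at 5.39, 4.20 and 5.21 CPM in NTG and at 4.33, 5.23 and 6.67 CPM in TG hearts. The groups overlapped (log2 fold change 0.14, SE 0.22, edgeR adjusted p = 0.764). Per3 lies on the same strand inside Camta1, and how reads shared by both were counted is not given in the sources used here.

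Cry1 (ENSMUSG00000020038, GRCm38 chromosome 10, 85131700 to 85185064, minus strand), the partner of the PER proteins and the stronger repressor of the loop, was the gene that depended most on NTG 1. It was at 25.3, 16.8 and 12.1 CPM in NTG and at 26.8, 25.5 and 23.0 CPM in TG hearts. NTG 1 lay among the TG hearts, and NTG 2 and NTG 3 lay below all 4 of these. The means were 18.1 ± 6.68 and 25.1 ± 1.93 CPM (SD, n = 3), with a log2 fold change of 0.47 (SE 0.24, edgeR adjusted p = 0.333). Without NTG 1 the log2 fold change was 0.79 (SE 0.17, edgeR adjusted p = 0.0377), past both thresholds, where edgeR called 5.52% of all genes, 2.67% higher and 2.85% lower. DESeq2 without NTG 1 gave 0.80 with an adjusted p of 0.00235, where it called 11.7% of all genes, 5.92% higher and 5.79% lower, and Cry1 and Per2 were then its only calls among the 10 genes. Without NTG 3, the lowest NTG heart, the log2 fold change was 0.25 (edgeR adjusted p = 0.566). Over all 23 alternatives the adjusted p of Cry1 ran from 0.00235 to 0.729.

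The REV-ERB genes and Dbp had lower means in TG than in NTG hearts and overlapped in each case. Nr1d1 was at 25.0, 36.2 and 43.3 CPM in NTG and at 27.8, 21.5 and 38.9 CPM in TG hearts. NTG 1 and TG 2 were the lowest, and the log2 fold change was −0.25 (SE 0.27, edgeR adjusted p = 0.642). Nr1d2 had the tightest NTG group of the 10 genes, at 42.6, 41.6 and 43.8 CPM, against 31.9, 25.1 and 45.5 CPM in TG hearts. TG 1 and TG 2 lay under the NTG hearts and TG 3 above them, which gave a log2 fold change of −0.32 (SE 0.20, edgeR adjusted p = 0.403). Dbp, with 53 to 116 counts per library, was at 4.78, 4.83 and 6.71 CPM in NTG and at 4.04, 3.01 and 5.49 CPM in TG hearts. TG 2 was again the lowest, and the log2 fold change was −0.38 (SE 0.27, edgeR adjusted p = 0.464). All 3 genes depended on single hearts. Without TG 2 the log2 fold change was −0.064 for Nr1d1, −0.14 for Nr1d2 and −0.19 for Dbp, and without TG 3 it was −0.50, −0.59 and −0.63 (edgeR adjusted p from 0.425 to 0.910 in these fits). Without NTG 3 it was −0.062 for Nr1d1 and −0.20 for Dbp. Nr1d1 shares 1075 bases at its end with Thra and Dbp 737 bases with Sphk2, each on the opposite strand, and the strand setting of the counting is not given in the sources used here.

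**Figure D2:**
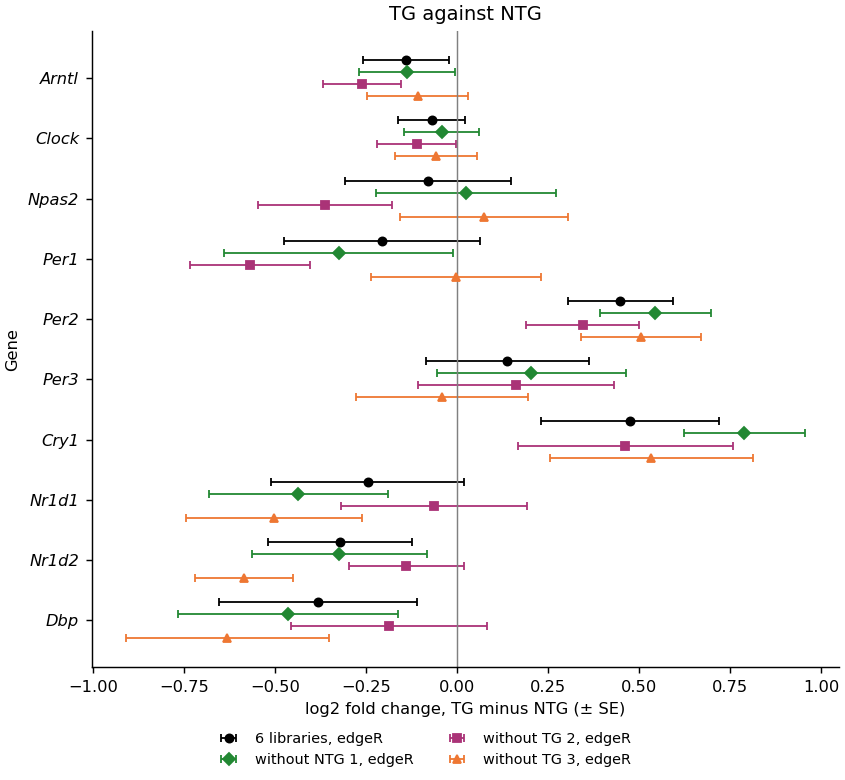
log2 fold change of TG minus NTG (x axis, ± standard error, edgeR) of the 10 clock genes (y axis) in the 6 libraries (black), without NTG 1 (green), without TG 2 (purple) and without TG 3 (orange). Cry1 moves from 0.47 to 0.79 without NTG 1, and Per1 from −0.21 to −0.57 without TG 2 and to −0.0039 without TG 3.

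The spread between hearts of the TG group exceeded the difference between the groups for most clock genes, as it did for most genes tested. On the log2 CPM scale, the range over the 3 TG hearts was wider than the difference of the group means for 8 of 10 genes, the exceptions being Per2 and Cry1, against 67.3% of all genes tested. With NTG 1 left out of the NTG mean, the same count was 8 of 10, with the same exceptions, against 58.4% of all genes. The range over the 3 NTG hearts exceeded it for 7 of 10 genes, against 77% of all genes. For 7 of 10 genes, Arntl, Npas2, Per1, Per3, Nr1d1, Nr1d2 and Dbp, the TG hearts ranged more widely than the NTG hearts, which held for 40.7% of all genes tested. For Nr1d2 the range was 0.86 in TG and 0.075 in NTG hearts, and for Per1 it was 1.05 and 0.43.

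TG 2 and TG 3 held most of these extremes. TG 2 was the highest of the 6 libraries for Arntl, Npas2, Per1 and Per2 and the lowest for Nr1d1, Nr1d2 and Dbp. TG 3 was the lowest for Npas2 and Per1 and the highest for Per3 and Nr1d2. Relative to the mean of the 6 libraries on the log2 scale, Dbp lay at −0.61 in TG 2 and at 0.23 in TG 3, and Npas2 at 0.42 and −0.38. NTG 3 was the highest of the 6 for Nr1d1 and Dbp and the lowest for Clock, Cry1 and Per2.

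**Figure D3:**
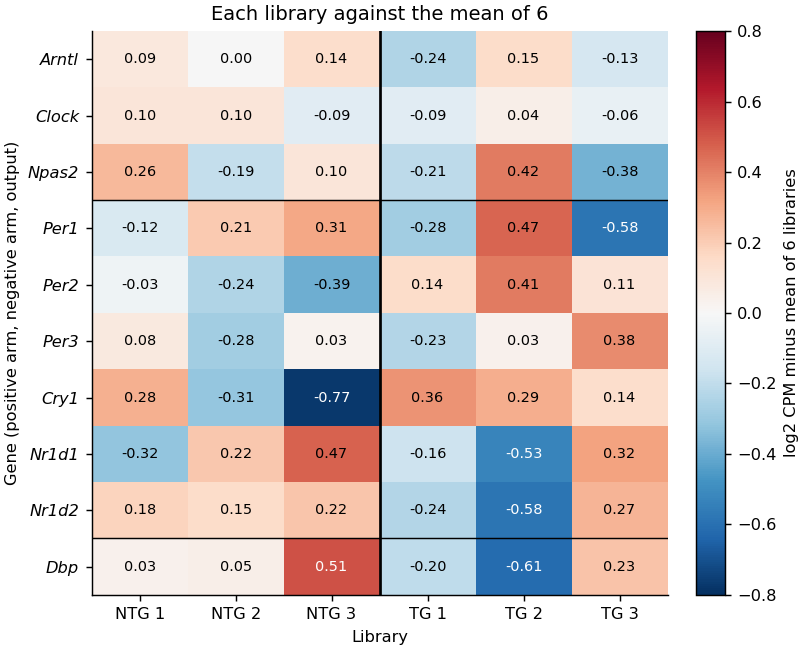
log2 CPM of each clock gene (rows, positive arm above, then negative arm and output) minus its mean over the 6 libraries (columns), red above and blue below the mean. In TG 2, Arntl, Npas2, Per1 and Per2 are above the mean and Nr1d1 at −0.53, Nr1d2 at −0.58 and Dbp at −0.61 below it.

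The ratio of Arntl to Dbp needs no scaling between libraries, because both are counted in the same heart. It was 8.57, 7.98 and 6.33 in NTG 1 to 3 and 8.09, 14.2 and 6.39 in TG 1 to 3. The 95% counting interval of TG 2 was 10.72 to 18.7, that of NTG 1 was 6.69 to 10.98, which overlaps it, and that of TG 3 was 5.11 to 7.99. These intervals cover counting error only, and the groups overlapped. Per length of the gene model, Arntl was 2.52 to 5.64 times Dbp, so that Arntl exceeded its output gene in every heart, while Nr1d1, at 7.002 to 14.1 CPM per kilobase, exceeded Arntl in every heart. Levels of different genes therefore give no hour by themselves, and only the order of the hearts was read. TG 2 lay furthest to the side of high Arntl and low Dbp, and NTG 3 and TG 3 lay least far to it. In the textbook order this is the side of the start of the light phase. Over the 6 hearts, however, Arntl and Dbp did not run against each other (Pearson's r = 0.0064). Between the highest and the lowest library Arntl varied by 1.31-fold and Dbp by 2.23-fold, so Dbp moved the ratio more. NTG 3 had 42.5 CPM of Arntl, close to the 42.7 CPM of TG 2.

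The negative arm did not follow that order in full. The mean log2 CPM of Arntl, Clock and Npas2 minus that of Nr1d1, Nr1d2, Dbp, Per1, Per2 and Per3 was 1.04, 0.81 and 0.71 in NTG 1 to 3 and 0.84, 1.19 and 0.54 in TG 1 to 3, again with TG 2 highest, TG 3 lowest and the groups overlapping. With Arntl and Npas2 against Nr1d1, Nr1d2 and Dbp alone, a choice made after the values were seen, it was 0.55, 0.11 and 0.054 in NTG and 0.31, 1.19 and −0.19 in TG hearts. Per1 and Per2, which peak near the end of the light phase, were highest in TG 2, the heart whose Arntl, Nr1d and Dbp values lay at the other side of the cycle. By the textbook order, Per1 and Per2 thus gave TG 2 a different place in the cycle from Arntl, the Nr1d genes and Dbp, while Per3 lay near its mean there, at 0.033, and was highest in TG 3. In addition, the TG and NTG ranges overlapped in the Arntl to Dbp ratio and in both differences of means.

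Across the 6 hearts, some clock genes ran side by side, though none passed a test for it. The 45 pairs of members were compared on log2 CPM, with an exact permutation test over the 6 libraries and adjustment over the 45 pairs, and no pair passed at an adjusted p of 0.05. By Pearson's r over the 6 libraries, the closest pair was Nr1d2 and Dbp, with r = 0.91 (exact permutation p = 0.0111, adjusted p = 0.25) and Spearman's rho = 0.89 (exact permutation p = 0.0333, adjusted p = 0.25). Without TG 1 and TG 2, the libraries farthest from the median of Nr1d2, r was 0.54, so the relation rests in part on them. Nr1d1 and Dbp gave r = 0.89 (exact permutation p = 0.0111, adjusted p = 0.25) and rho = 0.94 (exact permutation p = 0.0167, adjusted p = 0.25), and r = 0.65 without NTG 3 and TG 2, so that by rho this pair was the closer one.

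For Per2 and Cry1, repressors with positive group differences, r was 0.86 (exact permutation p = 0.0208, adjusted p = 0.312) and rho was 0.89 (exact permutation p = 0.0333, adjusted p = 0.25), and r was 0.86 without NTG 3 and TG 2. Per2 ran against Dbp, with r = −0.85 (exact permutation p = 0.0375, adjusted p = 0.391) and rho = −0.83 (exact permutation p = 0.0583, adjusted p = 0.328), but r was −0.18 without NTG 3 and TG 2, so that this relation rests on those hearts. Arntl and Npas2 gave r = 0.82 (exact permutation p = 0.0556, adjusted p = 0.391) and rho = 0.89 (exact permutation p = 0.0333, adjusted p = 0.25), and r = 0.82 without TG 1 and TG 3. With the group means removed, the r of these 5 pairs was 0.87, 0.90, 0.76, −0.85 and 0.86 in the order given.

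As a description with no test, each gene with a mean of at least 10 CPM was ordered by its r with Dbp over the 6 libraries. Nr1d2 was 16th from the top and Nr1d1 32nd of 9081 genes, while Per2 was at place 9027 and Cry1 at 8865. The genes most like Dbp were Golph3l, Gclm, Plcg1, Dnajc18 and Tdp2, with r from 0.98 to 0.95, and those most opposed were Mesd, Jarid2, Xirp1, Tcf20 and Fam168b, with r from −0.99 to −0.95. In the same order for Arntl, over 9080 genes, Npas2 was at place 211 and Per1 at 306. Clock was at place 2200, Nr1d2 at 5011, Nr1d1 at 5302, Per2 at 5622 and Cry1 at 6767. The r of Arntl with Nr1d2 was −0.074 and with Nr1d1 −0.14, so neither was strongly opposed to it. The genes most like Arntl were Ints6, Plpp6, Dact3, Maml1 and Ptpa, with r from 0.99 to 0.98, and those most opposed were 2310011J03Rik, Ninj1, Net1, Gabarapl2 and Safb2, with r of −0.99 to −0.98. With 6 points, such values are reached by many genes.

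Between genes, levels were compared per kilobase of the gene model. Per1 was the most abundant clock transcript, at 17.0 ± 4.48 CPM per kilobase (SD, n = 6), followed by Nr1d1 at 10.4 ± 2.79 and Nr1d2 at 7.10 ± 1.50 CPM per kilobase. Per1 exceeded Nr1d1 in 5 of 6 hearts and Nr1d1 exceeded Nr1d2 in 6 of 6. Cry1 at 6.46 ± 1.75, Clock at 5.59 ± 0.349 and Arntl at 5.15 ± 0.546 CPM per kilobase followed, and Nr1d2, Cry1 and Clock overlapped in their ranges. Npas2 at 2.76 ± 0.600 and Per2 at 2.69 ± 0.541 CPM per kilobase differed by less than their spread. Dbp was at 1.61 ± 0.420 and Per3 lowest at 0.538 ± 0.0926 CPM per kilobase, with Dbp above Per3 in 6 of 6 hearts.

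**Figure D4:**
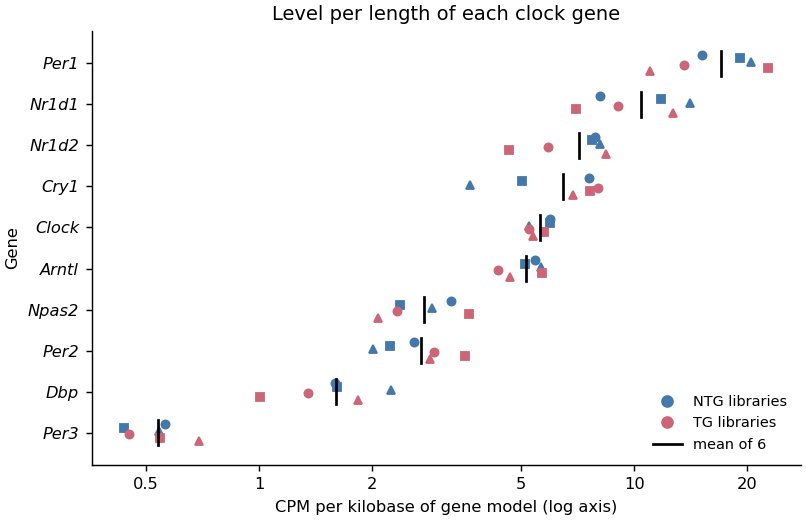
CPM per kilobase of gene model (x axis, log scale) of each clock gene (y axis, ordered by the mean) in the 3 NTG (blue) and 3 TG (red) libraries, with a black line at the mean of the 6. Per1 has the highest mean, at 17.0, and Per3 the lowest, at 0.538.

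Of 17 other genes of the clock machinery, 0 were called. At an unadjusted p under 0.05, 0 were higher and 2 were lower, Rora and Bhlhe41, against 8.83% and 9.76% of all genes, and the median log2 fold change was −0.0082 against −0.0081 over all genes tested. Rora, the activator that competes with the REV-ERBs for ROREs, was at 38.6, 53.8 and 45.0 CPM in NTG and at 36.9, 38.1 and 32.1 CPM in TG hearts. Each TG heart lay under each NTG heart, with a log2 fold change of −0.36 (SE 0.14, edgeR adjusted p = 0.228). Bhlhe41, an E-box repressor also called DEC2, was at 33.4, 48.6 and 29.9 CPM in NTG and at 17.7, 31.4 and 15.4 CPM in TG hearts, where TG 2 lay within the NTG range. Its log2 fold change was −0.79 (SE 0.30, edgeR adjusted p = 0.235). Without NTG 1, edgeR called 1 of these 17 genes, Hlf, which was higher, against 5.52% of all genes. In that fit 1 was higher and 2 lower at an unadjusted p under 0.05, against 13.7% and 13.3% of all genes, with a median of −0.026. The 2 lower genes were then Rora and Arntl2, while Bhlhe41, at −0.87, was no longer among them (edgeR unadjusted p = 0.0698).

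The D-box factors related to Dbp did not share its negative sign. Hlf was at 10.1, 4.78 and 6.02 CPM in NTG and at 9.74, 10.7 and 10.9 CPM in TG hearts, with NTG 1 among the TG hearts and a log2 fold change of 0.60 (SE 0.27, edgeR adjusted p = 0.277), which was 0.96 without NTG 1 (adjusted p = 0.0332). Tef was at 57.4 to 67.3 CPM in NTG and 66.6 to 76.0 CPM in TG hearts, with a log2 fold change of 0.18 (adjusted p = 0.359). Nfil3, the D-box repressor, had a log2 fold change of 0.06, Cry2 one of −0.06 and Ciart, a repressor of the ARNTL pair with about 2 CPM in each group, one of 0.13 (adjusted p = 0.904, 0.767 and 0.820, edgeR).

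**Figure D5:**
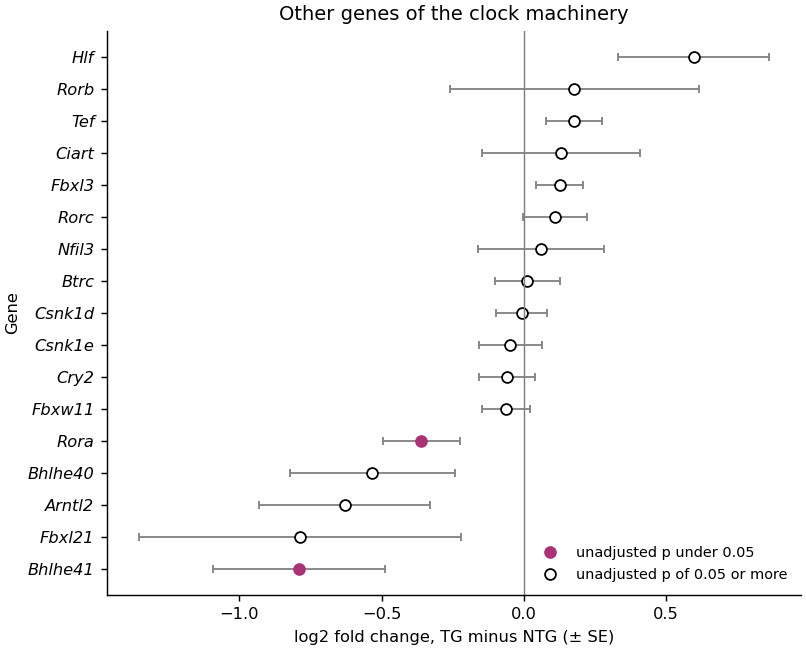
log2 fold change of TG minus NTG (x axis, ± standard error, edgeR) of 17 further clock genes (y axis), filled where the unadjusted p is under 0.05. Rora at −0.36 and Bhlhe41 at −0.79 are the filled points, and no gene passes the adjustment over all genes tested.

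Of 13 genes known to follow the clock in the heart or other tissues, 0 were called, 1 was higher and 2 were lower at an unadjusted p under 0.05, against 8.83% and 9.76% of all genes, and the median log2 fold change was 0.075. Dgat2, which makes triglycerides, was at 234, 101 and 133 CPM in NTG and at 310, 221 and 303 CPM in TG hearts (log2 fold change 0.84, edgeR adjusted p = 0.230), with NTG 1 above TG 2. Pdk4, which holds pyruvate back from oxidation, was at 568, 548 and 761 CPM in NTG and at 496, 415 and 514 CPM in TG hearts (log2 fold change −0.40, edgeR adjusted p = 0.255). Tspan4 was at 23.3, 48.2 and 36.2 CPM in NTG and at 18.8, 20.6 and 19.5 CPM in TG hearts (log2 fold change −0.87, edgeR adjusted p = 0.196). For Pdk4 and Tspan4 the groups did not overlap, both lower, as for 12.3% of all genes, and 0 of the 13 did so higher, against 11.2%. Without NTG 1, where edgeR called 5.52% of all genes, it called 2 of the 13, Dgat2 at 1.25 (adjusted p = 0.0215) and Tspan4 at −1.11 (adjusted p = 0.0149). In that fit 4 of the list were higher and 2 lower at an unadjusted p under 0.05, against 13.7% and 13.3% of all genes, and the median log2 fold change was 0.29 against −0.011 over all genes.

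Glucocorticoids can set peripheral clocks and act on Per1 directly, so 8 of their known target genes were read beside the clock. None was called, and 0 were higher and 1 lower at an unadjusted p under 0.05, against 8.83% and 9.76% of all genes, with a median log2 fold change of −0.18. The lower gene was Tsc22d3, at 280, 288 and 291 CPM in NTG and at 218, 207 and 271 CPM in TG hearts (log2 fold change −0.30, edgeR adjusted p = 0.253). Fkbp5 was at 97.7, 201 and 185 CPM in NTG and at 116, 72.2 and 115 CPM in TG hearts (log2 fold change −0.68, edgeR adjusted p = 0.284). It was lowest in TG 2 and next lowest in NTG 1, the same 2 hearts in which Nr1d1 was lowest. Zbtb16 and Mt2 shared these lowest hearts, and Tsc22d3, Sgk1, Klf9, Errfi1 and Cdkn1a did not. The match to Nr1d1 was not tested. Sgk1, Klf9 and Zbtb16 had positive log2 fold changes, of 0.24, 0.12 and 0.028. Mt2 was at 3.14, 17.8 and 5.15 CPM in NTG and at 4.18, 2.50 and 4.51 CPM in TG hearts (log2 fold change −1.23, edgeR adjusted p = 0.343). Of the 9 immediate early genes, none was called and 0 were at an unadjusted p under 0.05, with log2 fold changes of −0.46 for Fos, −0.32 for Junb and 0.56 for Atf3. Without NTG 1, 0 genes of both these lists were called by edgeR. The median of the glucocorticoid targets was then −0.29, with 0 higher and 2 lower at an unadjusted p under 0.05 against 13.7% and 13.3% of all genes, Fkbp5 at −0.94 (adjusted p = 0.0501) and Mt2 at −1.63 (adjusted p = 0.137). The values of Fos, Junb and Atf3 were then −0.77, −0.58 and 0.91 (adjusted p = 0.355, 0.206 and 0.319), and 0 of the 9 immediate early genes reached an unadjusted p under 0.05.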

How the data were processed

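Poly-A selected RNA from the left ventricle was sequenced on an Illumina Novaseq. After read cleaning, the authors aligned to a reference (with HISAT2, per the submitters' processing notes), ran StringTie for additional transcripts and obtained gene counts with featureCounts. The deposited values are raw counts, neither normalized nor pooled. The processing notes name GRCh38, a human build, but the table holds mouse genes, and of its genes found in GENCODE M21 (GRCm38) 98.3% have the same start and end there, the 10 clock genes included. Strand setting and treatment of reads shared by genes are not given in the sources used here. The file's gene lengths gave CPM per kilobase.

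The main test was edgeR 4.0.16 in R 4.3.3 (TMM, filterByExpr, robust quasi-likelihood test, Benjamini-Hochberg over 14774 genes). The standard error is the size of the log2 fold change divided by the root of its F. Calls needed an adjusted p below 0.05 and an absolute log2 fold change above 0.5. Log2 CPM had a prior count of 2. Named beside the 10 genes were, per list, the 3 with the smallest unadjusted p, preset clock partners and the 5 genes most and least like Arntl and Dbp. The members and lists were chosen with earlier results of these data known. The 23 alternatives were other scalings and filters, DESeq2 1.42.0, limma 3.58.1 (voom), the likelihood-ratio test, robust = FALSE, an adjusted p alone, a replicate block, and each library left out in edgeR and DESeq2. Tests were first run on simulated counts. Nothing says whether replicates were processed separately beyond 1 heart per library, and no 2 libraries agreed within sampling noise (chi-square per gene 15.6 to 133). Of the sample columns, 0 were left unmatched.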

Additional observations from a re-analysis of the deposited data

How the results depend on the processing

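Every scaling tried (RLE, library size and upper quartile) left 0 clock genes called by edgeR's quasi-likelihood test, as did either other filter, robust = FALSE, an adjusted p alone and the replicate block, and DESeq2, limma-voom and the likelihood-ratio test on the 6 libraries also called 0. Of the 230 values of the 10 genes under 23 alternatives, 9 had the other sign and 3 were called. Leaving out 1 library, in edgeR or DESeq2, gave 0 to 2 clock genes called, 0 to 2 of them higher and 0 lower, with the calls on Cry1 and Per2 without NTG 1. It gave 0 to 2 at an unadjusted p under 0.05, with 0 to 2 higher and 0 to 2 lower. Of the 15001 to 15170 genes then tested, 715 to 2075 were higher and 694 to 2006 lower at that p. The groups of 1 to 4 clock genes did not overlap, 1 to 2 higher and 0 to 3 lower. Without TG 2 these were Per2 higher and Arntl, Npas2 and Per1 lower, and without TG 3 Cry1 and Per2 higher and Dbp and Nr1d2 lower, where 20.2% and 15.2% of all genes were higher and 21.2% and 16.6% lower. The other sign was reached by Npas2 (range −0.36 to 0.077), Per1 (−0.57 to 0.0013) and Per3 (−0.041 to 0.27). limma-voom and the replicate block each had 2 clock genes at an unadjusted p under 0.05, both higher. Of all 14774 genes tested, 1396 were higher at that p by limma-voom and 1650 with the replicate block. Over all genes, 0 were called at first, with 2747 at an unadjusted p under 0.05. The count was 232 (116 higher, 116 lower) with no low-count filter, 583 (228 and 355) by DESeq2, 545 (206 and 339) by the likelihood-ratio test and 231 (84 and 147) with the replicate block, and 0 to 1773 (0 to 896 higher and 0 to 877 lower) with 1 library left out. The cause was not tested. The deviations of same-numbered hearts from their group means correlated at 0.081, 0.17 and −0.25, against −0.25 to 0.17 for the other pairs. With 3 hearts per group, these values cannot settle whether replicate numbers paired the hearts. Per3 and Dbp, with 53 to 116 counts per library, are limited most by depth.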
